A study of Mus musculus with 18 samples.

Results

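Aortic smooth muscle cells from the thoracic aorta of C57BL/6 mice that had received a scramble siRNA, a control with no intended target, were given the growth factor PDGF-BB or left without a stimulus, and their RNA was sequenced. The comparison covers 6 of the 18 libraries of the series: 3 of scramble siRNA cells with PDGF-BB and 3 of unstimulated scramble siRNA cells. All 57180 genes of the deposited table were considered, and 15832 had enough counts to be tested. Both groups carry the scramble siRNA, so each change is one in transfected cells. Whether the 3 replicates of a group came from separate cultures is not stated in the labels, so p-values reflect library-to-library spread that may be only technical. Set beside these are 3 scramble libraries with TGF-β, and 3 libraries of PDGF-BB and 3 of unstimulated cells that had received an siRNA against Itgav, the gene of the integrin αV chain.

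PDGF-BB is a homodimer of PDGF B chains that binds the receptor tyrosine kinases PDGFRβ and PDGFRα, and the bound receptors signal through RAS and ERK kinases, phosphoinositide 3-kinase and phospholipase C. ERK signalling induces EGR, AP-1 and ETS transcription factors as well as its own inhibitors. In vascular smooth muscle PDGF-BB is known as a factor that stimulates migration and division and lowers the genes of the contractile apparatus, which are driven by the factor SRF with its partners of the myocardin family. No dose or time of either factor was given in the labels.

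The deposited counts of the 6 libraries totalled between 18736166 and 21592916. In a principal component analysis of the 6 libraries, the first component (50.5% of the variance) placed the PDGF-BB libraries between 27.6 and 42.6 and the unstimulated libraries between -34.6 and -29.8. The second component (17.5%) separated PDGF-BB replicate 1, at 34.8, from the other PDGF-BB libraries, at -24.6 and -19.3. PDGF-BB replicate 1 also had 3.47% of its counts in mitochondrial genes, against 4.08% and 4.01% in the other PDGF-BB libraries, and 5.14% in ribosomal protein genes, against 4.5% and 4.82%. Among the 10724 genes that averaged 5 CPM or more in the PDGF-BB group, it lay at least 1.5-fold above both other libraries for 18 and at least 1.5-fold below both for 32. Among 10695 genes of that level in its own group, unstimulated replicate 1 was above both others by that fold for 5 and below both for 51. The level of PDGF-BB replicate 1 relative to the other PDGF-BB libraries ran with transcript length: the median log2 ratio was 0.10 among those of these genes in the shortest of 4 equal classes of exonic length (1986 genes) and -0.09 in the longest class (3189 genes). Unstimulated replicate 1 leaned the same way within its own group, with medians of 0.08 and -0.06 in those classes. Smooth muscle markers were present in all 6 libraries. Their sum ranged from 1087 to 1130 CPM with PDGF-BB, against 2351 to 2413 CPM without a stimulus.

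Across the transcriptome PDGF-BB changed 5714 genes, which is 36.1% of those tested, at a Benjamini-Hochberg adjusted p under 0.05 in edgeR's quasi-likelihood test. Of these, 2676 rose (16.9%) and 3038 fell (19.2%). Most of the changes were small: 450 genes rose at least 2-fold (2.84%) and 437 fell at least 2-fold (2.76%), and the median log2 fold change over all genes tested was 0.01. Of the 450, 117 averaged under 1 CPM in both groups, as did 79 of the 437, so their fold changes rest on few reads. Scaled by library totals alone, the calls split into 3351 higher and 2487 lower. Without PDGF-BB replicate 1 there were 2243 higher and 2563 lower calls, and 4508 of the 5714 genes were called in the same direction with and without it. The calls also ran with length. Of the 3882 shortest genes 663 rose and 417 fell, and of the 3882 longest 593 rose and 1142 fell, with median log2 fold changes of 0.08 and -0.07 (0.05 and -0.04 without PDGF-BB replicate 1). The shares of 16.9% and 19.2% are the background for the gene lists below. Of 48 lists of pathways and families, those of DNA replication, HOX genes and angiopoietins had no share above 1.5 times that background in either direction. The 3 PDGF-BB libraries lay all above (21.3% of genes tested) or all below (22.8%) the 3 unstimulated libraries for 44% of genes, so a lack of overlap between groups is common here. In what follows, levels are TMM-scaled CPM, CPM means carry an SD over 3 libraries, log2 fold changes carry a standard error, and every log2 fold change is PDGF-BB minus unstimulated unless another contrast is named. CPM is not scaled by transcript length, so levels are compared between libraries and not between genes.

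**Figure D1:**
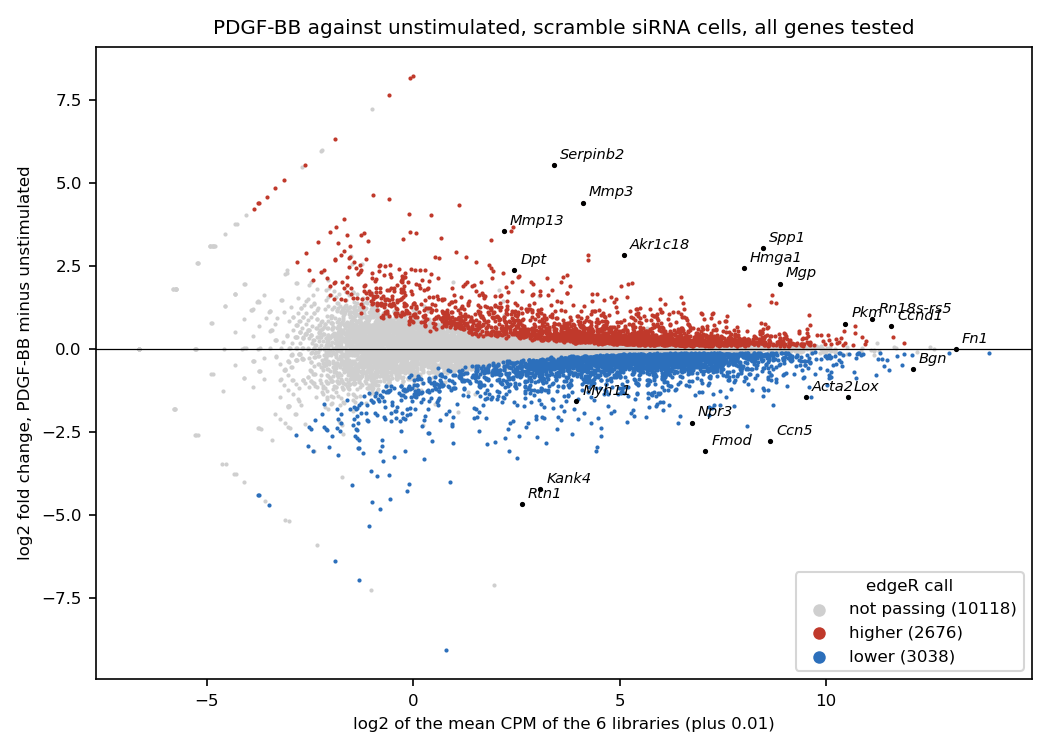
Each point is 1 of the 15832 genes tested: the x axis gives the log2 of its mean CPM over the 6 libraries plus 0.01, the y axis its log2 fold change, PDGF-BB minus unstimulated, and the colour its call. The 2676 higher and 3038 lower genes lie at every level of expression, with Serpinb2 and Mmp3 far above the rest of the well-expressed genes and Rtn1 and Kank4 far below.

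The receptors and ligands of the PDGF family were themselves lower under PDGF-BB. Of 7 tested, 0 rose and 5 fell (4 without PDGF-BB replicate 1, where the call of Pdgfc was lost, and 3 in a fit of these 6 libraries alone). Pdgfrb, the receptor chain that smooth muscle cells mainly use, stood at 298, 318 and 293 CPM in the PDGF-BB libraries, against 518, 513 and 509.7 CPM in the unstimulated libraries. Every PDGF-BB library lay below every unstimulated one, a log2 fold change of -0.76 ± 0.037 (edgeR adjusted p = 3.9e-13). Pdgfra, the second receptor chain, averaged 7.25 ± 1.2 CPM with PDGF-BB and 12.3 ± 0.93 CPM without (-0.77 ± 0.11). Among the ligands Pdgfd (-0.69), Pdgfc (-0.32) and Pdgfa (-0.21) fell, the call of Pdgfa being lost in 4 of 13 alternative fits. Pdgfb, which encodes the chain of the factor that was added, averaged 3.5 ± 0.81 CPM with PDGF-BB and 3.3 ± 0.51 CPM without, and did not pass (0.09 ± 0.18).

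Feedback inhibitors of the ERK pathway and phosphatases of MAP kinases, the family that includes ERK, were listed together and rose in most cases. Of 17 tested, 13 rose and 3 fell (76.5% higher, against 16.9% of all genes), with a median log2 fold change of 0.43 against 0.01 for all genes. Dusp6, a phosphatase that inactivates ERK, had 65.1, 63.9 and 63.1 CPM in the PDGF-BB libraries, against 29.6, 33.9 and 31.3 CPM in the unstimulated libraries (1.02 ± 0.066, edgeR adjusted p = 3.9e-11). The groups did not overlap. Errfi1, an inhibitor of the EGF receptor (1.20), the nuclear ERK phosphatase Dusp5 (0.83), Dusp4 (0.43), and the membrane-bound inhibitors Spred3 (0.99), Spred1 (0.73), Spry4 (0.79) and Spry2 (0.46) rose with it. The members did not all move together: Spry1 fell to 12.7 ± 0.71 CPM, against 25 ± 0.76 CPM in unstimulated cells, and Dusp1 (-0.64) and Dusp8 (-0.34) fell as well.

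The transcription factors downstream of ERK were unevenly affected. Of 16 AP-1, EGR and MYC factors, 9 rose and 4 fell. Fosl1, which encodes the AP-1 subunit FRA-1, had 17.6, 21.3 and 21.6 CPM in PDGF-BB cells, against 4.77, 7.66 and 6.25 CPM in unstimulated cells, a 3.25-fold rise. Egr1, an immediate early zinc finger factor, had 55.3, 53.5 and 49.9 CPM with PDGF-BB, against 22.7, 26.5 and 21.7 CPM without (1.16 ± 0.079). For both genes all 3 PDGF-BB libraries were above all unstimulated ones. Egr2 and Egr3 rose too, at levels of 1.4 ± 0.23 CPM and 2.66 ± 0.46 CPM with PDGF-BB. Junb (0.55) and Jun (0.34) rose less, while Fos fell to 3.1 ± 0.95 CPM, against 5.87 ± 0.17 CPM in unstimulated cells. Fosl2 (-0.21) fell also, and Myc (0.20) and Jund did not pass. Myc was called higher in 5 of 13 alternative fits, the replicate block included (edgeR adjusted p = 0.0425), and Jund in 2. Of 10 ETS factors 6 rose and 1 fell. Those that rose include the PEA3 members Etv4 (1.33), Etv1 (0.70) and Etv5 (0.34).

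Hmga1 (ENSMUSG00000046711, chromosome 17, 27556497 to 27563674 on the plus strand; here and below GENCODE M21 positions, build GRCm38), a chromatin architectural protein that binds AT-rich DNA, was among the genes that rose most. It had 455, 421 and 419.7 CPM in the PDGF-BB libraries, against 83.7, 76.3 and 78.8 CPM in the unstimulated libraries. That is a 5.43-fold rise with no overlap (2.44 ± 0.05, edgeR adjusted p = 2.4e-19). Hmga2, the second gene of the family, had 182, 201 and 201 CPM with PDGF-BB, against 101, 103 and 98.2 CPM without (0.95 ± 0.051). Of the D-type cyclins, which start the cell cycle with CDK4 and CDK6, Ccnd1 stood at 3668, 3906 and 3719 CPM with PDGF-BB and 2322, 2326 and 2339 CPM without (0.69 ± 0.035), and Ccnd2 rose (0.37) while Ccnd3 fell (-0.27). The E-type cyclin Ccne2 fell (-0.43), and Cdkn1a, a CDK inhibitor, rose by 0.14 on the log2 scale.

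Among called genes that averaged 5 CPM or more over the 6 libraries, had an ordinary symbol and did not overlap between groups, the 10 largest rises were led by Serpinb2 (ENSMUSG00000062345, chromosome 1, 107511423 to 107535478 on the plus strand), an intracellular serine protease inhibitor. It was near 0 in unstimulated cells: 18.9, 21.2 and 22 CPM with PDGF-BB, against 0.275, 0.457 and 0.581 CPM without. Mmp3 (ENSMUSG00000043613, chromosome 9, 7445822 to 7455975 on the plus strand), the matrix-degrading enzyme stromelysin, had 34.5, 28.9 and 35 CPM with PDGF-BB and 2.57, 0.913 and 1.02 CPM without. They were followed by Npy4r, a receptor of the neuropeptide Y family (3.69 ± 0.21), the pentraxin Nptx1 (3.57 ± 0.27), the osteopontin gene Spp1 (3.05 ± 0.074), the cGMP-dependent kinase gene Prkg2 (2.85 ± 0.1) and the steroid dehydrogenase gene Akr1c18 (2.84 ± 0.097). The cornified envelope gene Sprr1a (2.68), Hmga1 and the matrix gene Dpt (2.38), which encodes dermatopontin, completed them.

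By the same choice of genes, the largest falls included that of Rtn1, a reticulon of the endoplasmic reticulum. Rtn1 had 0.353, 0.721 and 0.324 CPM with PDGF-BB, against 11.9, 11.3 and 12.4 CPM without, and Kank4, an adaptor of adhesion sites, had 0.505, 1.34 and 0.74 CPM with PDGF-BB, against 16.4, 16.1 and 15.6 CPM without. Both were nearly lost from the PDGF-BB libraries. Fmod (ENSMUSG00000041559, chromosome 1, 134037254 to 134048277 on the plus strand), a collagen-binding proteoglycan, had 27.6, 29.8 and 28.2 CPM with PDGF-BB and 243, 235 and 239 CPM without, an 8.38-fold fall. Also among the 10 largest falls were the receptor phosphatase gene Ptprz1 (-3.29), the monooxygenase gene Fmo2 (-3.06), the actomyosin regulator Limch1 (-2.94), the matricellular gene Ccn5 (-2.77), the surface glycoprotein gene Cd200 (-2.65) and Angptl1 (-2.61). By CPM gained, Ccnd1 and Ccnd2 stood beside Lgals1, which encodes galectin-1 (2083 ± 115 CPM with PDGF-BB, 1265 ± 71 CPM without), the pyruvate kinase gene Pkm, Mgp, Spp1 and S100a6 (1934 ± 369 CPM and 1379.6 ± 129 CPM). The remaining gene of those 8, the ribosomal RNA locus Rn18s-rs5, had 3218, 4169 and 1328 CPM with PDGF-BB and 1751, 1301 and 1593 CPM without. Its groups overlapped, and its call (0.91 ± 0.34, edgeR adjusted p = 0.041) was lost in 7 of 13 alternative fits. The 8 genes that lost most CPM were Bgn, Lox, Cxcl12, Tmsb4x, mt-Co1, Sparc, Cald1 and Thbs1. Of these mt-Co1, a mitochondrial gene, changed by -0.11 on the log2 scale and lost its call in 8 alternative fits. Copies of Hmga1, Tmsb4x and several glycolytic genes elsewhere in the genome can share reads with them, so their levels are less certain.

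Genes of the contractile apparatus were lower in PDGF-BB cells. Of 32 tested, 4 rose, 20 fell and 8 did not pass (62.5% lower, against 19.2% of all genes), with a median log2 fold change of -0.36 (17 fell without PDGF-BB replicate 1). Acta2 (ENSMUSG00000035783, chromosome 19, 34241090 to 34255590 on the minus strand), the smooth muscle actin, had 379, 397 and 403 CPM in PDGF-BB cells, against 1035, 1059.5 and 1099.9 CPM in unstimulated cells. Tagln, the actin-binding protein SM22α, had 336, 320.4 and 343 CPM with PDGF-BB and 729.9, 711 and 718 CPM without. Myh11, the smooth muscle myosin heavy chain, had 7.63, 9.47 and 6.24 CPM with PDGF-BB and 21.3, 22.8 and 24.7 CPM without. In each of these the groups were well apart, and the falls were 2.71-fold, 2.16-fold and 2.96-fold (edgeR adjusted p = 7.4e-17, 5.5e-13 and 1.2e-09). The actin-binding calponin Cnn1 (-1.07 ± 0.13) and caldesmon Cald1 (-0.85 ± 0.051), the actin-membrane linker Vcl, vinculin (-0.82 ± 0.062), the light chain gene Myl9 (-0.80), the actin crosslinker Actn1 (-0.62) and the actin nucleator Lmod1 (-0.65) fell too. Falls in the thin-filament genes Tpm1 (-0.18) and Smtn (-0.12) were small, that of Smtn being lost in 10 of 13 alternative fits, and Tpm2 (-0.09) and Synpo2 (0.06) did not pass. The genes that rose were Des, the intermediate filament desmin (15.9 ± 1.3 CPM with PDGF-BB, 8.57 ± 1.1 CPM without), the integrin ligand Npnt (0.55), Sncg (0.47) and the myosin kinase gene Mylk (0.21). In bulk RNA, fewer cells of a type and less of an RNA per cell cannot be told apart, here and in the results that follow.

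**Figure D2:**
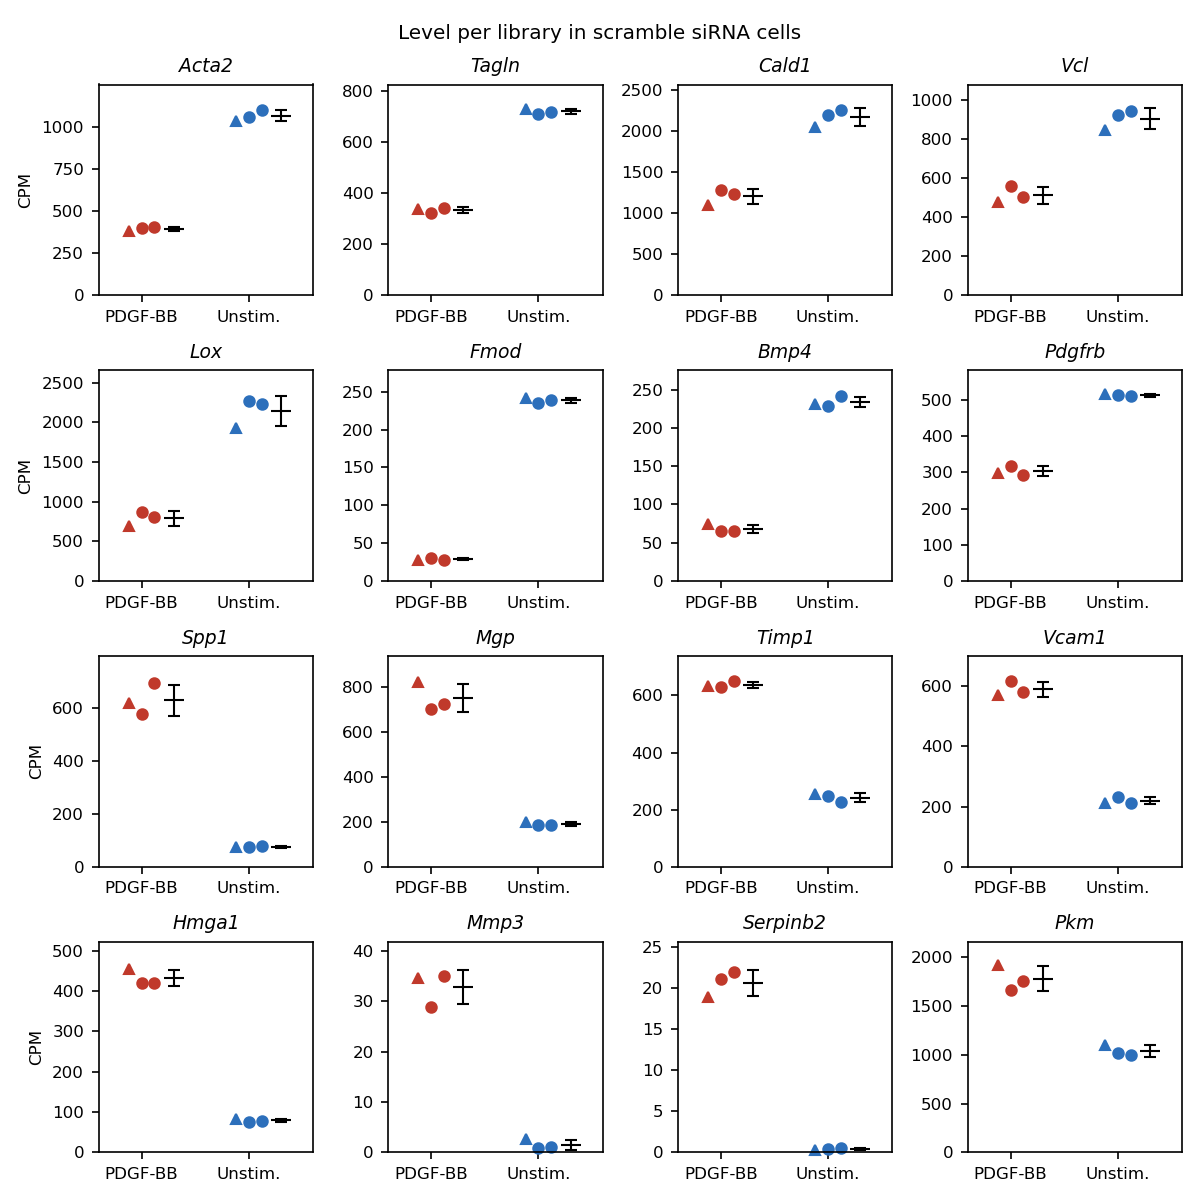
CPM of 16 genes in each library, PDGF-BB at the left and unstimulated at the right of each panel. Triangles mark replicate 1, circles replicates 2 and 3, and the bar and whiskers give the mean and SD of 3 libraries. In every panel all PDGF-BB libraries lie on 1 side of all unstimulated libraries, lower for Acta2, Tagln, Cald1, Vcl, Lox, Fmod, Bmp4 and Pdgfrb and higher for the other 8.

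Regulators known to drive or oppose these genes moved in both directions. Of 22 tested, 3 rose and 8 fell. Myocd, the smooth muscle coactivator of SRF, averaged 2.67 ± 0.58 CPM with PDGF-BB and 2.54 ± 0.38 CPM without, and did not pass (0.08 ± 0.18). Srf itself was 1.15-fold lower (-0.21 ± 0.067), a call lost in 6 of 13 alternative fits, and the coactivator gene Mrtfa fell (-0.20), a call lost in 5 of them, with -0.13 without PDGF-BB replicate 3. Klf4, a factor known to repress contractile genes in cultured cells, fell: 91.9, 96.8 and 88.9 CPM with PDGF-BB, against 138, 129 and 136 CPM without (-0.54 ± 0.045). Klf15 (-1.52) and the Hippo pathway factor gene Tead1 (-0.75) fell, whereas Klf5 (0.86), the homeobox gene Prrx1 (0.61) and Mef2a (0.43) rose. Gata6 (-0.12) did not pass.

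Receptors for vasoactive agents and the cGMP pathway moved both ways. Of 41 tested, 8 rose and 18 fell. Npr3, the clearance receptor for natriuretic peptides, had 35.6, 40.2 and 38.8 CPM with PDGF-BB, against 165, 182 and 181 CPM without (-2.20 ± 0.061, edgeR adjusted p = 2.9e-17). The groups lay far apart. Prkg1, the cGMP-dependent kinase of smooth muscle, fell (-1.15), as did the adrenergic receptor genes Adra1b (-1.16) and Adra1d (-0.93), the endothelin ligand gene Edn1 (-1.05) and the phosphodiesterase gene Pde5a (-0.58). Agtr1a, an angiotensin II receptor, was low in both groups, 0.0995 ± 0.1 CPM with PDGF-BB and 1.75 ± 0.34 CPM without. The sphingosine phosphate receptor S1pr3 rose to 20.2 ± 1.3 CPM, against 6.23 ± 1.1 CPM in unstimulated cells, and the prostaglandin receptors Ptger4 (1.39) and Ptgir (1.44) and the purine receptor P2ry1 (1.65) rose as well. Of 30 calcium and potassium channel genes 7 rose (3 without PDGF-BB replicate 1) and 9 fell. The L-type calcium channel gene Cacna1c fell to 2.95 ± 0.72 CPM, against 6.99 ± 0.45 CPM in unstimulated cells, the calcium pump gene Atp2b4 fell (-1.06), and the store-release channel gene Itpr3 (0.65) and the calcium sensor gene Stim2 (0.56) rose, while Stim1 fell (-0.42). Among the RGS genes, which switch off G-protein signals, Rgs5 fell (-1.29) and Rgs16 rose (1.64) to 2.97 ± 0.53 CPM.

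Genes often described as markers of modulated smooth muscle, cells that have left the contractile state, mostly rose. Of 18 tested, 10 rose and 6 fell. Spp1, the secreted phosphoprotein osteopontin (ENSMUSG00000029304, chromosome 5, 104435118 to 104441050 on the plus strand), had 621, 578 and 695 CPM in PDGF-BB cells, against 74.6, 73.5 and 80 CPM in unstimulated cells. Mgp, an inhibitor of calcification, had 820.0, 703 and 725 CPM with PDGF-BB and 198, 186 and 186 CPM without, a rise of 1.98 ± 0.062 on the log2 scale. Vcam1, an adhesion molecule for leukocytes, had 571, 617 and 581 CPM with PDGF-BB and 213, 232 and 212 CPM without. For these 3 genes the groups did not overlap. Cd44, a hyaluronan receptor (1.34), the metalloproteinase inhibitor gene Timp1 (1.40), Lgals3 (1.06), S100a4 (0.37) and Vim (0.20) rose as well, while Tnfrsf11b, which encodes osteoprotegerin (-1.69), Dcn (-1.16) and Tnc (-0.93) fell. Of 20 osteochondrogenic genes 5 rose, Spp1 and Mgp among them, and 11 fell, with Bmp4 (-1.78), Col11a1 (-1.28), Col2a1 (-0.93) and the chondrocyte factor Sox9 (-0.57). Runx2 (0.07) did not pass.

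Many genes of the extracellular matrix fell. Of 26 collagen genes 8 rose and 12 fell. The type I chains Col1a1 (1375 ± 93 CPM with PDGF-BB, 1508 ± 68 CPM without) and Col1a2 (0.07), and the basement membrane chain Col4a1 (0.11) did not pass. Col1a1 was called lower in 4 of 13 alternative fits, among them that with the replicate block (edgeR adjusted p = 0.0102). The chain gene Col4a3 had 6.36, 6.49 and 7.03 CPM with PDGF-BB and 36.2, 41.6 and 43.5 CPM without, and its partner Col4a4 fell too (-1.77). Col12a1 (-1.68), Col14a1 (-1.31) and Col3a1 (-0.74) fell. Col15a1 rose to 58.2 ± 5.6 CPM, against 14.9 ± 3.4 CPM in unstimulated cells, and Col6a3 (1.21) and Col7a1 (1.21) rose.

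Among elastic fibre and crosslinking genes 6 of 22 rose and 10 fell. Lox, the enzyme that crosslinks collagen and elastin, had 688, 869 and 806 CPM with PDGF-BB, against 1929, 2272 and 2234 CPM without (-1.45 ± 0.066, edgeR adjusted p = 1.3e-13). Fbln5, which organises elastic fibres, stood at 481 ± 27 CPM with PDGF-BB and 1056 ± 50.4 CPM without, and Mfap5 (-0.98), the fibrillin gene Fbn1 (-0.63) and the elastin gene Eln (-0.43) fell less. Small proteoglycans and hyaluronan genes had a median of -0.58 with 7 of 27 higher and 14 lower. Beside Fmod, the leucine-rich proteoglycans Prelp (87.8, 97.5 and 88.1 CPM with PDGF-BB, 437, 466 and 458 CPM without), Ogn (-2.20) and Bgn (-0.58) fell, and the large proteoglycan gene Vcan (1.13) rose. The libraries of Prelp did not overlap. Of 18 laminin and basement membrane genes 4 rose and 11 fell, with Smoc1 at -1.67, Lamb2 at -0.92 and Lamb1, which rose, at 0.68. Of 18 matricellular genes 4 rose and 11 fell. The CCN family members Ccn5 (-2.77), Ccn3 (-1.06), Ccn1 (-0.94), Ccn2 (-0.76) and Ccn4 (-0.68) all fell, as did the thrombospondin genes Thbs1 (-0.50) and Thbs2 (-0.85). Fn1, fibronectin, averaged 9057 ± 949 CPM and 8953 ± 484 CPM and did not pass. Plod2, a lysyl hydroxylase that modifies collagen, had 176 ± 16 CPM with PDGF-BB and 410.1 ± 26 CPM without, within a list of 28 folding and secretion genes of which 2 rose and 12 fell.

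Proteases changed gene by gene. Of 17 metalloproteinase and TIMP genes 4 rose and 5 fell. Besides Mmp3, the collagenase gene Mmp13 had 9.9, 8.65 and 6.66 CPM with PDGF-BB and 0.687, 0.964 and 0.484 CPM without, and Timp1, their inhibitor, had 634, 630.1 and 650.1 CPM with PDGF-BB and 256, 246 and 225 CPM without. All rose without overlap. The membrane-bound inhibitor gene Reck (-1.19) and Mmp16 (-1.02) fell, and the gelatinase gene Mmp2 (-0.08) and the membrane-type Mmp14 (0.11) did not pass, although Mmp14 was called higher in 4 of 13 alternative fits. Mmp9 was not among the genes tested. The aggrecanases Adamts1 (218, 218 and 206 CPM with PDGF-BB, 499.9, 504 and 507 CPM without) and Adamts5 (-1.16) fell, in a list of 24 of which 10 fell and 4 rose. In the plasminogen system 10 of 19 rose and 8 fell. The tissue activator gene Plat had 125, 136 and 132 CPM with PDGF-BB, against 56.4, 57.3 and 54.5 CPM without. It was higher in every PDGF-BB library than in any unstimulated one. The urokinase receptor gene Plaur (0.57) and Plau (0.20) rose, and the tissue factor gene F3 (-1.56) fell.

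Promoter sequences are printed for the genes with the largest rises whose promoters hold an AP-1 motif, since the AP-1 subunit gene Fosl1 rose. They come from RefSeq promoters of GRCm38.p6, the build of the files, which run from 250 bases before to 50 after a gene's start. The motif searched was TGANTCA on either strand. CArG box as CCWWWWWWGG, with W for A or T, the CRE motif TGACGTCA and CATTCC, known as MCAT, were searched likewise. Exact matches alone were counted, so elements that depart from these letters are missed. An AP-1 match and a CATTCC match can share bases. Of the 887 genes that changed at least 2-fold, 288 of the 450 higher and 297 of the 437 lower genes had a promoter in the table, and of all genes tested 11202 had one. AP-1 motifs were found in 17.0% of the higher, 7.41% of the lower and 6.49% of all promoters. MCAT was in 12.8%, 21.9% and 14.9%, CArG box in 0.694%, 1.68% and 1.56%, and CRE in 1.39%, 1.35% and 3.38%. These shares describe the letters in these windows and were not tested. Each of the 8 windows below gives 20 bases on each side of the motif, on the strand of the gene, 5′ to 3′, with the motif in capitals.
Serpinb2: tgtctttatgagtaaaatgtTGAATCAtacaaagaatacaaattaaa
Mmp3: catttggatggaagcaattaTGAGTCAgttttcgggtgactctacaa
Sprr1a: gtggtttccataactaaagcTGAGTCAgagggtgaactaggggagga
Cd68: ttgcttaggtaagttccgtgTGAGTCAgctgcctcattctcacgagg
Mt2: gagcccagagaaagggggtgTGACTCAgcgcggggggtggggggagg
Adssl1: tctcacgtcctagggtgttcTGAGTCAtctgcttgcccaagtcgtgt
C3ar1: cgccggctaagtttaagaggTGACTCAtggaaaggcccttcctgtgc
Itih2: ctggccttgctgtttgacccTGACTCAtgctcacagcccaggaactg
The windows lie at chr1:107511309-107511355 on the plus strand for Serpinb2, chr9:7445756-7445802 on the plus strand for Mmp3, chr3:92486001-92486047 on the minus strand for Sprr1a, chr11:69666293-69666339 on the minus strand for Cd68, chr8:94172519-94172565 on the plus strand for Mt2, chr12:112619862-112619908 on the plus strand for Adssl1, chr6:122856153-122856199 on the minus strand for C3ar1 and chr2:10130806-10130852 on the minus strand for Itih2. The motif began 94 bases before the start in Serpinb2 and 46 before it in Mmp3. The log2 fold changes of the 8 genes ran from 5.55 for Serpinb2 to 1.37 for Itih2. Sprr1a and Cd68 held 2 matches each, and the first is shown.

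The contractile genes are shown by the promoters of Acta2 (chr19:34255324-34255623, minus strand) and Vcl (chr14:20929148-20929447, plus strand), which fell and hold motifs that contractile promoters are known for. Capitals mark MCAT in Acta2, and CArG box followed by MCAT in Vcl. Exact matches alone are marked. In Acta2 ccctatatgg and ccttgtttgg depart from the CArG letters searched by a base each, and stay in lower case.
Acta2: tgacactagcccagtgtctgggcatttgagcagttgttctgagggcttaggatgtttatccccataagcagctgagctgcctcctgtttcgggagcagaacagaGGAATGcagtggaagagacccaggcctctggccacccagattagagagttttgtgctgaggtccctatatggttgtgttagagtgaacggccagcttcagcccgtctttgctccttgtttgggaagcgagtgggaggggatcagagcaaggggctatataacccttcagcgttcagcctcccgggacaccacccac
Vcl: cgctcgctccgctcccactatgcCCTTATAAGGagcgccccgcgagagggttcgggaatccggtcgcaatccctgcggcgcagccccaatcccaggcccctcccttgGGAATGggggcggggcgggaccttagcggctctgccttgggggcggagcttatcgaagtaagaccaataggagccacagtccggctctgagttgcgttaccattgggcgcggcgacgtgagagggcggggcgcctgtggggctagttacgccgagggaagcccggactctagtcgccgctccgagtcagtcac
Of the 27 contractile genes with a promoter in the table, 3 held an exact CArG box, 9 MCAT and 4 an AP-1 motif within these 300 bases. Acta2 is not among those 3.

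TGF-β and BMP signalling genes were mostly lower. Of 28 TGF-β ligands, receptors and SMADs 3 rose and 15 fell. The ligand genes diverged: Tgfb2 fell to 147 ± 11 CPM, against 292 ± 17 CPM in unstimulated cells, Tgfb3 fell (-0.57), and Tgfb1 rose to 31.3 ± 1.1 CPM, against 15.4 ± 1.8 CPM. The receptor genes Tgfbr1 (-0.30) and Tgfbr2 (-0.45), the inhibitory SMADs Smad7 (-1.12) and Smad6 (-1.40), and Skil (-0.96) fell, and Smad3 rose (0.53). In the BMP list 2 of 26 rose and 16 fell, with a median of -0.44. Bmp4 had 74.3, 65.4 and 64.8 CPM with PDGF-BB, against 232, 229 and 241 CPM without, and the ID genes, which BMP signalling induces, fell in all 4 cases: Id1 (-0.99), Id2 (-1.21), Id3 (-1.06) and Id4 (-0.67). Both sets of libraries lay apart for Bmp4. The BMP antagonist gene Grem1 rose to 1029 ± 41 CPM, against 498 ± 18 CPM in unstimulated cells. Among 22 YAP and TEAD targets 12 fell and 5 rose, and among 16 Notch genes 5 fell, including the ligand gene Jag1 (82.1 ± 3.6 CPM with PDGF-BB, 260.2 ± 14 CPM without) and its target Hey2 (-1.79), and 2 rose.

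Secreted factors and guidance molecules changed widely. Of 39 genes for FGF, EGF, HGF and VEGF factors and their receptors 9 rose and 17 fell. Hgf, hepatocyte growth factor, had 8.84, 11.2 and 9.2 CPM with PDGF-BB, against 1.6, 2.03 and 2.61 CPM without. All PDGF-BB libraries of this gene were above all unstimulated ones. The EGF-family gene Hbegf (0.64) rose. Csf1, the macrophage growth factor, fell to 662 ± 13 CPM, against 1398 ± 35 CPM in unstimulated cells, and Gas6 (-1.21), Vegfd (-0.91), Nrg1 (-1.33) and Fgfr2 (-1.50) fell as well. In the IGF axis 8 of 15 fell and 2 rose. Igfbp2, an IGF-binding protein, had 456, 423 and 414 CPM with PDGF-BB, against 1166, 1176 and 1160.1 CPM without, and Pappa, a protease that cleaves such proteins, fell (-2.04). Of 35 semaphorin, netrin, slit and ephrin genes 19 fell, among them Slit3 (-1.83), Slit2 (-1.75), Sema3c (-1.36) and Sema3d (-1.46), and 7 rose, led by Sema5a (1.28). Of 28 WNT ligands and antagonists 12 fell, with the secreted antagonist gene Sfrp2 (-0.82) and the receptor gene Fzd2 (-0.67), and 3 rose, with Dkk3 (0.68). Of 18 integrin subunits 7 rose, with Itga3 (0.80) and Itga7 (0.67), and 7 fell, with Itga1 (-1.58) and Itga11 (-1.34). Itgav averaged 321 ± 15 CPM and 316 ± 14 CPM and did not pass.

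The inflammatory lists shared no common direction. Of 29 chemokine and cytokine genes 10 rose and 6 fell (34.5% and 20.7%, against 16.9% and 19.2% of all genes), and 13 did not pass. Their median log2 fold change was 0.47. Taken by library, the medians of PDGF-BB replicates 1, 2 and 3 were lower, at 0.10, 0.32 and 0.39. These come from log2 CPM with a small count added and not from the fit. The added count pulls genes of low level towards 0, so the measures are not alike. Ccl2, the monocyte chemokine, had 43.1, 47.2 and 43.3 CPM with PDGF-BB, against 24.3, 22.5 and 24.7 CPM without, and Ccl7 rose (1.10). Cxcl12, which binds the receptor CXCR4, had 2295, 2310.1 and 2348 CPM with PDGF-BB, against 3587, 3609 and 3575 CPM without, and Il6 fell to 3.81 ± 0.45 CPM, against 9.17 ± 0.4 CPM in unstimulated cells. Neither Ccl2 nor Cxcl12 overlapped between groups. Of 22 NF-κB and prostaglandin genes 7 rose, with Ptgs1 (0.66) and Tnfaip2 (1.16), and 3 fell. Of 13 complement genes 8 fell and 3 rose. The protease genes C1ra (-1.28) and C1s1 (-1.22) fell, and the receptor gene C3ar1 (1.57) rose.

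Interferon response genes depended on single libraries. Of 34 tested, 15 fell and 0 rose. The count of those that fell was 23 without unstimulated replicate 1, 5 without unstimulated replicate 2, 7 without unstimulated replicate 3 and 8 without PDGF-BB replicate 1. Ifit1, an antiviral protein gene, had 15.3, 15 and 25.4 CPM with PDGF-BB, against 8.66, 49.8 and 44.7 CPM without. Isg15, a ubiquitin-like modifier, had 14.1, 13.6 and 16.2 CPM with PDGF-BB, against 8.25, 37.9 and 35.4 CPM without. Unstimulated replicate 1 was below every PDGF-BB library for both genes, while the other unstimulated libraries were above all of them. Gbp3, a guanylate-binding protein gene, had 8.33, 6.85 and 6.94 CPM with PDGF-BB, against 8.34, 26.7 and 23.1 CPM without (-1.38 ± 0.28), and its groups were parted by only the gap between unstimulated replicate 1 and PDGF-BB replicate 1. The call of Isg15 was lost in 7 of 13 alternative fits, and Ifit1 (-0.87), which did not pass, did so in 3 of them.

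Genes of mitosis and DNA replication did not rise, unlike the cyclin genes Ccnd1 and Ccnd2 above. Of 34 genes of G2/M and mitosis 0 rose and 27 fell (79.4% lower; 21 genes without PDGF-BB replicate 1), with a median of -0.29. Top2a, the topoisomerase of dividing cells, had 97.6, 117 and 112 CPM with PDGF-BB, against 145, 157 and 163 CPM without (-0.51 ± 0.083), and Cdk1, the mitotic kinase, had 56.8, 55.6 and 60 CPM against 81.8, 75.3 and 86.4 CPM. Both were lower in all PDGF-BB libraries. Mki67, a marker of cycling cells, was 1.16-fold lower (-0.22 ± 0.066, edgeR adjusted p = 0.014), a call lost without unstimulated replicate 3 and with scaling by library totals. Of 33 genes of DNA replication and G1/S 0 rose, 4 fell and 29 did not pass. Rrm2 (-0.41) and Rrm1 (-0.34), the subunits of the enzyme that makes deoxynucleotides, were among the falls, and the replication clamp gene Pcna (-0.08) did not pass.

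Genes of growth and energy metabolism rose by small amounts. Of 32 genes of ribosome biogenesis, many of them MYC targets, 23 rose and 1 fell, with a median of 0.24 (22 and 1 without PDGF-BB replicate 1). Ncl, nucleolin (778 ± 19.7 CPM with PDGF-BB, 618 ± 8 CPM without), the methyltransferase gene Fbl (0.50) and Ppan (0.52) rose, and Odc1, the enzyme of polyamine synthesis, fell (-0.37). Of 29 glycolysis and hypoxia genes 16 rose and 4 fell. Pkm, pyruvate kinase, had 1916, 1664 and 1762 CPM with PDGF-BB, against 1104, 1019.9 and 995 CPM without (0.78 ± 0.058, edgeR adjusted p = 4.4e-10). Tpi1 (0.76), Pfkl (0.71), Aldoa (0.60), Gapdh (0.55) and Ldha (0.48), enzymes of the same pathway, rose too. The glucose transporter gene Slc2a1 (0.12) and the hypoxia factor gene Hif1a (0.05) did not pass. Nuclear genes of oxidative phosphorylation rose in 16 of 24 cases (12 without PDGF-BB replicate 1) and fell in 0, with a median of 0.18, beside a median of 0.08 among the 3882 shortest genes. Without PDGF-BB replicate 1 those medians were 0.15 and 0.05. That replicate stood 0.0991 above its group by the list's median log2 ratio. The part of length and of that library in these small rises was not tested.

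Of 28 amino acid and one-carbon genes 9 rose and 4 fell. The cystine transporter gene Slc7a11 had 8.74, 12.6 and 11.5 CPM with PDGF-BB, against 3.44, 5.33 and 3.68 CPM without, and Psat1, of serine synthesis, rose (0.66). Slc7a11 was higher in each PDGF-BB library. Cholesterol and fatty acid genes rose in 10 of 32 cases, with Insig1 (0.35), Mvd (0.41) and Fdps (0.29), and fell in 5, with the lipid carrier gene Apoe at -1.13. Of 35 oxidative stress and xenobiotic genes 7 rose and 15 fell. Hmox1, haem oxygenase, had 186, 166 and 156 CPM with PDGF-BB, against 86.6, 78 and 74 CPM without, and Akr1c18 had 57.9, 61.8 and 60.4 CPM against 7.33, 8.57 and 9.2 CPM. Both rose without overlap, whereas the quinone reductase gene Nqo1 (-0.17) did not pass and Gclm (-0.59) fell. Of 29 lysosomal genes 11 rose, with the cathepsin gene Ctsh (0.65), and 8 fell, with Ctsl (-0.34). Of 20 p53 targets 7 rose, with Mdm2 (0.39), and 6 fell, a count that was 3 without any 1 of 4 libraries.

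**Figure D3:**
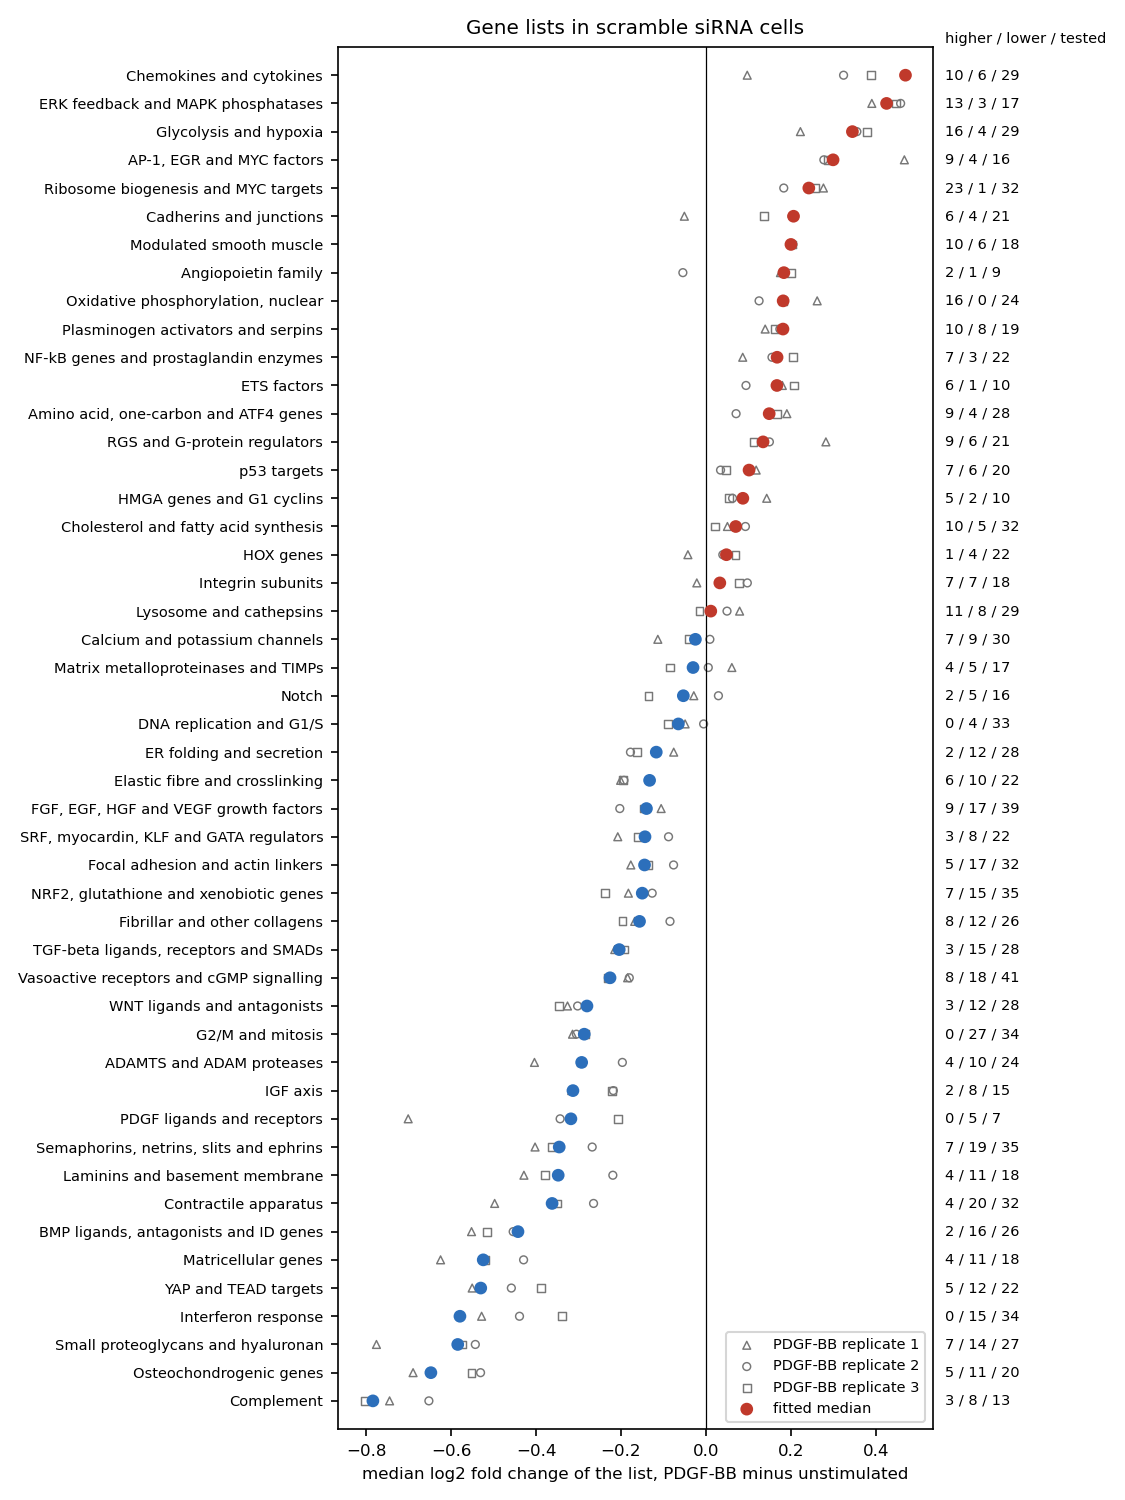
Median fitted log2 fold change, PDGF-BB minus unstimulated, of the tested members of each gene list (filled circles, red above 0 and blue below). Open triangles, circles and squares give the medians of PDGF-BB replicates 1, 2 and 3 against the mean of the unstimulated libraries. The open symbols use log2 CPM with a small count added, so their measure differs from that of the filled circles. Numbers at the right give members higher, lower and tested. Chemokines and cytokines and the list of ERK feedback genes and MAP kinase phosphatases are at the top, complement and osteochondrogenic genes at the bottom.

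Markers of other cell types were measured as well. Of 10 endothelial markers, which summed to 124.8 to 142.6 CPM with PDGF-BB and 104.4 to 123.1 CPM without, 2 rose and 0 fell. The count that rose was 1 without PDGF-BB replicate 1, 4 without unstimulated replicate 1 and 4 with scaling by library totals. Macrophage markers summed to 24.2 to 26.1 CPM with PDGF-BB and 17.8 to 20.5 CPM without, and of 5 tested 2 rose, Cd68 (2.17) and Csf1r (0.55, a call lost in 6 of 13 alternative fits), and Lyz2 (-0.72) fell. The defining markers Adgre1, C1qa and Mrc1 did not reach the counts needed for a test. Adventitial fibroblast markers summed to 965.5 to 1050 CPM with PDGF-BB and 815 to 880.5 CPM without, mostly Gsn (810.4 ± 50.5 CPM and 705 ± 34 CPM). Of 10 tested 5 rose, among them Cd34 (0.73), Scara5 (1.23) and Dpt (7.83, 10.7 and 8.74 CPM with PDGF-BB, 1.83, 1.88 and 1.5 CPM without). In the same list 3 fell, among them Pdgfra (-0.77) and Clec3b (-1.56). Mesothelial markers summed to 199.8 to 221.5 CPM with PDGF-BB and 157.8 to 168.5 CPM without. Of 7 tested 4 rose, among them Krt19 (108, 82.2 and 87.7 CPM with PDGF-BB, 34.4, 33.9 and 29.2 CPM without), Msln (1.76) and Krt18 (1.02), and 1 fell, Upk3b (-1.91). Krt19 and Dpt did not overlap between groups. No lymphocyte or erythroid marker was tested, with Cd3e and Cd3d at 0 in all 6 libraries, and the adipocyte genes Cidec and Plin1 were at 0 as well. Adipocyte markers summed to 28.9 to 29.9 CPM with PDGF-BB and 13.5 to 15.7 CPM without, and of the 2 tested Fabp4, a fatty acid carrier that other cells express too, rose (1.15). Schwann cell markers summed to 15.7 to 18 CPM with PDGF-BB and 24 to 26.7 CPM without, and of 3 tested S100b fell (-0.81). Cardiomyocyte markers summed to 7.6 to 9.61 CPM with PDGF-BB and 14.3 to 15.8 CPM without, and the 1 tested, Tnnt2, fell (-0.81). Like the levels of 44% of genes tested, the sums of these 3 lists did not overlap between groups. Those of endothelial, macrophage, adventitial fibroblast and mesothelial markers did not overlap either. The part of these cells in the changes above was not tested.

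PDGF-BB cells were then compared directly with the scramble cells given TGF-β, the cytokine under which such cells are known to express more contractile and matrix protein. In that test 9013 genes (56.9%) were called, 4587 higher (29%) and 4426 lower (28%) with PDGF-BB. Scaling by library totals alone put the median log2 fold change of all genes at 0.17, against 0.02 with TMM, and gave 6450 higher and 3010 lower calls. Of the 450 genes that PDGF-BB raised at least 2-fold over unstimulated cells, 314 were higher than with TGF-β, 32 were lower and 104 were not called, and of the 437 it lowered, 300 were lower, 33 higher and 104 not called. Both contrasts share the PDGF-BB libraries.

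Acta2 averaged 393 ± 12 CPM with PDGF-BB, 4227 ± 202 CPM with TGF-β and 1065 ± 33 CPM without a stimulus (PDGF-BB minus TGF-β -3.43 ± 0.045, edgeR adjusted p = 2.9e-23). Eln, the elastin gene, averaged 262 ± 8 CPM with PDGF-BB, 5697 ± 235 CPM with TGF-β and 352 ± 10.2 CPM without a stimulus (-4.44 ± 0.056). For both genes the TGF-β cells were the highest and the PDGF-BB cells the lowest. C1qtnf3 (-6.89 ± 0.096) and the disulphide isomerase gene Txndc5 (-2.55 ± 0.036) were also among the 5 lower genes with the smallest p. On the other side, the intermediate filament gene Nes averaged 624 ± 22 CPM with PDGF-BB, 79.6 ± 2.9 CPM with TGF-β and 199 ± 6.4 CPM without a stimulus (2.97 ± 0.046), and Hmga1 432 ± 20.4 CPM, 38.8 ± 1.1 CPM and 79.6 ± 3.8 CPM (3.48 ± 0.054). Plat (3.61 ± 0.06) and Crct1 (4.51 ± 0.075) had the same order of groups. Selenop, a plasma selenoprotein, was higher with PDGF-BB than with TGF-β (2.87 ± 0.045) though below its unstimulated level of 521 ± 6.5 CPM. Mmp3 averaged 32.8 ± 3.4 CPM with PDGF-BB and 0.189 ± 0.15 CPM with TGF-β, and Spp1 631 ± 59 CPM and 230.5 ± 21 CPM.

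By list, 21 of 32 contractile genes were lower with PDGF-BB than with TGF-β and 6 were higher. All 34 genes of G2/M and mitosis and 31 of 33 of DNA replication were higher with PDGF-BB than with TGF-β. Top2a averaged 109 ± 10.1 CPM with PDGF-BB, 67.5 CPM (SD 10.003) with TGF-β and 155 ± 9.2 CPM without a stimulus. Folding and secretion genes were lower with PDGF-BB in 27 of 28 cases and higher in 0, and PDGF ligands and receptors lower in 6 of 7. Against TGF-β, interferon genes were higher in 16 of 34 cases and lower in 1.

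Cells with the Itgav siRNA were used to ask how far the response depended on that siRNA. Of the 887 genes that changed at least 2-fold in scramble cells, 605 were called in the same direction in Itgav siRNA cells and 5 in the opposite one. The share of all genes tested that PDGF-BB changed in Itgav siRNA cells is not given here. These counts therefore have no background beside them, and no conclusion was drawn from them. The higher genes had a median log2 fold change of 1.27 in Itgav siRNA cells and 1.498 in scramble cells, and the lower genes -1.14 and -1.44. The genes were chosen by the scramble values, which by itself makes the scramble medians the larger. In the direct test of the difference (Itgav siRNA response minus scramble response), 260 of 15832 genes (1.64%) were called and at least 2-fold, 174 positive (1.1%) and 86 negative (0.543%), and 2981 (18.8%) were called at any size. Among the 450 raised genes 14 differences were positive and 24 negative, and among the 437 lowered genes 58 were positive and 5 negative. Choosing genes by their scramble response also favours differences towards a smaller response, so no conclusion was drawn from these splits.

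Spp1 had the larger rise in Itgav siRNA cells: 2159.6 ± 33 CPM with PDGF-BB and 92.7 ± 7.7 CPM without a stimulus, beside 631 ± 59 CPM and 76 ± 3.5 CPM in scramble cells (difference 1.49 ± 0.098, edgeR adjusted p = 1.5e-09). Slc22a23, a transporter family gene, averaged 21.5 ± 1.4 CPM with PDGF-BB and 8.72 ± 0.29 CPM without in Itgav siRNA cells, and 11.8 ± 0.63 CPM and 23.3 ± 1.3 CPM in scramble cells (difference 2.29 ± 0.11), so that its change had opposite signs. Gadd45a, a DNA damage gene, changed by 1.39 in Itgav siRNA and -0.18 in scramble cells, the last a call lost in 9 of 13 alternative fits, and the adhesion genes Alcam (-0.03 and -1.38) and Kirrel3 (0.71 and -1.49) fell in scramble cells, with differences of 1.34 and 2.205. These 5 were the positive differences with the smallest p. The negative ones were Ccn1 (-1.94 in Itgav siRNA and -0.94 in scramble cells), the Hippo pathway scaffold gene Wwc1 (-1.86 and -0.71), Angptl7 (-2.31 and -0.70), Npr3 (-3.48 and -2.20) and the netrin gene Ntn4 (-1.35 and -0.35), all of which fell further in Itgav siRNA cells. Acta2 fell in both, with log2 fold changes of -2.07 in Itgav siRNA and -1.44 in scramble cells (difference -0.63 ± 0.059, edgeR adjusted p = 1.6e-07). Mmp3 had close values, 4.34 and 4.42 (difference -0.08 ± 0.31, edgeR adjusted p = 0.9), and Serpinb2 4.43 and 5.55 (difference -1.13 ± 0.41, edgeR adjusted p = 0.062).

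**Figure D4:**
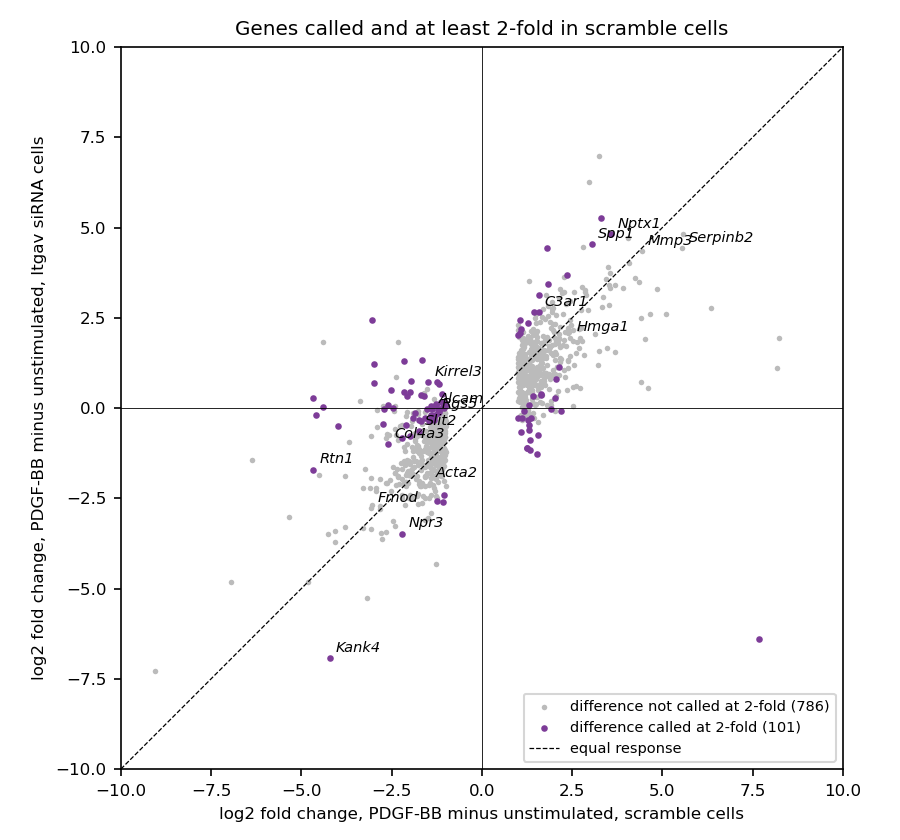
Log2 fold change, PDGF-BB minus unstimulated, of the 887 genes called and at least 2-fold in scramble cells: y axis in Itgav siRNA cells, x axis in scramble cells, with a dashed line of equal response. Purple marks the 101 genes whose difference was called and at least 2-fold, with Kank4, Npr3, Rtn1, Spp1 and Kirrel3 named among them. The genes were chosen by their values on the x axis.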

How the data were processed

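RNA libraries of the 3 PDGF-BB and 3 unstimulated scramble siRNA groups' replicates were compared, within a fit of all 18 libraries. Per the submitters' processing notes, HISAT2 2.2.1, StringTie 2.1.6 and mm10 were used. The authors deposited estimated counts for 57180 genes, of which 25535 were at 0 throughout; 76.2% of values above 0 were whole, and all were rounded. Columns were matched to samples by the column name each label gives. A second deposited table, of transcripts, was not used.

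Counts were fitted in edgeR 4.0.16 (R 4.3.3, limma 3.58.1) with TMM scaling (factors 0.925 to 1.07), filterByExpr with a minimum count of 10, 1 coefficient for each of the 6 groups and quasi-likelihood F-tests (12 residual degrees of freedom). P-values were adjusted by Benjamini-Hochberg over 15832 genes, which held at least 99.9% of each library's counts, and called under 0.05. Differences between siRNAs also had to reach 2-fold. The standard error is the log2 fold change divided by the square root of F. The biological coefficient of variation was 6.01%. Gene coordinates are from GENCODE M21, and exonic lengths were found for 98.1% of tested genes. Tables and plots used Python 3.11.15, pandas 2.3.3 and matplotlib 3.10.9.

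The members and gene lists were chosen with earlier results of these data known, so list counts are descriptions and no list was tested. Genes named are a fixed panel of 15, the 10 largest rises and falls averaging 5 CPM or more, without overlap and with an ordinary symbol, the 8 that gained and lost most CPM, up to 4 called members of each list by smallest p, the 5 positive and 5 negative of each further contrast by smallest p, and genes that set PDGF-BB replicate 1 apart. Some genes chosen by this rule are not reported here. The choice of other list members, of genes with a promoter motif and of members short of the threshold came after their values were known. Alternatives were other scalings (DESeq2 size factors, library totals), no filter, a mean of at least 1 CPM, a replicate block, DESeq2 1.42.0, a fit of the compared groups alone, and each library left out in turn. The labels do not say that replicate numbers mark a shared culture or day, so the numbers were not taken as pairs. Deviations of same-numbered PDGF-BB and unstimulated libraries correlated at 0.0963, 0.0193 and 0.0247. Those of differently numbered libraries correlated at -0.0649 to 0.0457. No source used here gives the strand setting of the counting, and overlapping genes on opposite strands are uncertain.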

Additional observations from a re-analysis of the deposited data

Results flagged for a closer look

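The PDGF-BB response differed between Itgav siRNA and scramble cells by at least 2-fold, with an adjusted p under 0.05 for the difference in edgeR's test, for 260 genes, and 25 of the genes named or listed here were among them. Values are the log2 fold change in Itgav siRNA cells minus that in scramble cells. Responses were more positive in Itgav siRNA cells for Rtn1 (2.96), Slc22a23 (2.285), Kirrel3 (2.205), Col4a3 (1.595), Gadd45a (1.569), Spp1 (1.49), Alcam (1.342), Tnfrsf11b (1.339), Nptx1 (1.24), Ccn3 (1.118), Rgs5 (1.109), Slit2 (1.102), C3ar1 (1.083) and Adcy7 (1.053). They were more negative for Kank4 (-2.706), Rn18s-rs5 (-2.665), Angptl7 (-1.615), Ccl7 (-1.384), Rgs16 (-1.286), Npr3 (-1.271), Sco2 (-1.269), Wwc1 (-1.148), Klf5 (-1.008), Ccn1 (-1.003) and Ntn4 (-1.001). Kank4 averaged 0.0326 ± 0.056 CPM with PDGF-BB and 4.77 ± 0.75 CPM without a stimulus in Itgav siRNA cells, and 0.861 ± 0.43 CPM and 16 ± 0.38 CPM in scramble cells, so its fold change in Itgav siRNA cells rests on a level near 0. Rn18s-rs5 varied by over 2-fold between PDGF-BB libraries of scramble cells, and Sco2 had 8.08, 4.32 and 5.32 CPM in the PDGF-BB libraries of scramble cells, the highest in replicate 1, against 3.35, 1.88 and 2.57 CPM without a stimulus. The groups of 3 libraries were too small for a test of single outlying samples.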

How the results depend on the processing

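The counts of genes called kept within 1.5 times their value under every alternative listed in the account of processing. For PDGF-BB against unstimulated cells (5714) they ran from 4921 to 5908 over 7 other settings and from 4656 to 5665 with each library left out in turn, where the low-count filter was applied anew. At 2-fold (887) the ranges were 630 to 1016 and 813 to 933, for PDGF-BB against TGF-β (9013) 7924 to 9460 and 8064 to 8841, and for the difference between siRNAs (260) 219 to 350 and 212 to 323. Scaling by library totals moved the higher share of calls to 57.4%, against 46.8%, and against TGF-β to 68.2%, against 50.9%. With the replicate block 5908 genes were called against unstimulated cells, 877 at 2-fold, 9127 against TGF-β and 268 for the difference. Of the 346 genes followed singly, 311 kept their direction and their side of the threshold under all 13 alternatives. With a library left out, 6 genes that were not called changed direction: their log2 fold changes ranged from -0.019 to 0.05274 for Itgav, from -0.1107 to 0.2019 for Myocd, from -0.105 to 0.2259 for Pdgfb, from -0.06982 to 0.07855 for Fn1, from -0.0464 to 0.3227 for Armc7 and from -0.3987 to 0.1248 for F8. The cause was not tested. Of list counts, those of focal adhesion genes called higher were 5, and 3 without PDGF-BB replicate 1 or unstimulated replicate 2, 3 with no filter or the compared groups alone and 9 with library totals. Interferon genes called lower were 15, and 25 with no filter and 9 with the compared groups alone. Lysosomal genes called lower were 8, and 5 without unstimulated replicate 2 or with the compared groups alone. ADAMTS and ADAM genes called higher were 4, and 2 without unstimulated replicate 1. Cholesterol genes called lower were 5, and 3 without unstimulated replicate 2 or with library totals. With 3 libraries a group and 18736166 to 21592916 counts each, genes below about 1 CPM rest on few reads.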

Other observations

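The 32 focal adhesion and actin linker genes were lower on balance, with 5 that rose and 17 that fell. Nedd9, a docking protein of adhesion sites (-0.96), Tln2 (-0.74) and Tns1 (-0.45) fell, whereas the filamin gene Flnc (0.50) rose. Among 21 cadherin and junction genes 6 rose, with the connexin gene Gja1 (309.9, 334 and 334 CPM with PDGF-BB, 220.4, 228 and 212 CPM without) and Pcdh19 (0.72), and 4 fell, with N-cadherin, Cdh2 (-0.27). Of 9 angiopoietin genes 2 rose, with Angptl4 at 11.8 ± 1.3 CPM with PDGF-BB and 3.03 ± 0.37 CPM without, and 1 fell. Of 22 HOX genes 1 rose and 4 fell, both below the shares over all genes of 16.9% and 19.2%.

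The genes that set PDGF-BB replicate 1 furthest apart from its group, among those averaging 5 CPM or more, were Nenf (37.8, 23.7 and 23.4 CPM in PDGF-BB replicates 1, 2 and 3), Slc12a9 (9.9, 6.33 and 6.1 CPM), Gja5 (7.22, 4.17 and 4.62 CPM), Armc7 (8.64, 5.35 and 5.6 CPM) and Sco2 on the high side. Zbtb37 (7.22, 13.2 and 12.7 CPM), Mtbp (3.84, 7.36 and 6.66 CPM), Tiam1 (5.2, 8.91 and 8.88 CPM), F8 (4.39, 9.73 and 7.49 CPM) and Slc25a14 (4.44, 7.36 and 8.09 CPM) stood lowest in it. The unstimulated libraries had 12.4, 14.5 and 13.6 CPM of Zbtb37 and 34.3, 28.2 and 29.7 CPM of Nenf.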
